A study of Mus musculus with 24 samples.

Results

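The results below concern the restimulation response, or recall response, of CD4+ T cells that had been primed in 0.5 µM I-BET-762. They rest on 6 of the 24 arrays of the study, 3 of activated cells and 3 of resting cells, chosen by the array titles. All 18193 genes with a named probe set were tested. The cells came from 2D2 mice on a C57BL/6 background, whose transgenic T cell receptor recognises a myelin peptide. They had been primed for 48 h on plates coated with antibodies to CD3 and CD28 under Th1 conditions and expanded for 2 days after leaving the plates. Activated cells then met the same antibodies again for 4 h, and resting cells did not. The comparison groups were primed in the same way: cells in Control-768 and cells in DMSO, the 2 control substances (each with 3 activated and 3 resting arrays), and cells in 0.25 µM I-BET-762. The age and sex of the mice, the concentration of Control-768 and whether any compound was present during restimulation are not given in the sources used here.

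BET proteins are readers of acetylated histones that help recruit the elongation factor P-TEFb to active genes, and I-BET-762 occupies the pocket with which they bind acetylated lysine. A T cell that meets antigen again passes signals from its receptor and CD28 to the factors NFAT, AP-1 and NF-kB, which switch on cytokine genes within hours. The same signals raise MYC and the machinery of ribosome synthesis, and lower genes of the quiescent state such as Klf2 and Pik3ip1.

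Each value is an Affymetrix intensity on a linear scale, and each change is activated minus resting on the scale log2(intensity + 16), which understates the change of dim genes. Errors are limma's standard error (SE), and adjusted p-values are limma's with Benjamini-Hochberg adjustment over all genes. "Rose" and "fell" are used only where that adjusted p was below 0.05. The labels call the 3 arrays of a group biological replicates. Array medians lay between 37.4 and 44.4 over the 24 arrays, and the highest value on any array between 20540 and 21730. The 3′ minus 5′ difference of the Gapdh control probe sets, a sign of RNA quality on the log2 scale, was 0.062, 0.050 and 0.312 in activated cells, against -0.022, 0.063 and -0.002 in resting cells. The activated array numbered 3 had the highest of all 24 values, and the part of this in the results was not tested. Arrays numbered 3 in their titles stood apart from the others. Over all genes, the SD of the log2 change was 0.918 between the 0.5 µM arrays numbered 3, against 0.544 for number 1 and 0.480 for number 2. For this reason the main counts are also given without any array numbered 3. The labelled cell type showed its markers: of 8 genes that define CD4 T cells, Cd5 rose, Cd3g and Cd4 fell, and their summed intensity was 35300 to 36500 in activated cells and 34700 to 43200 in resting cells. Of the markers of other cells, 7 B cell genes summed to between 108 and 138 in activated cells and between 118 and 136 in resting cells, and 9 myeloid genes to between 224 and 274 in activated cells and between 286 and 302 in resting cells. The 2 CD8 genes summed to between 530 and 957 in activated cells and between 527 and 600 in resting cells. The 7 dendritic cell and MHC class II genes summed to between 616 and 1420 in activated cells and between 1440 and 1970 in resting cells, with no overlap, and their part in the results was not tested. No member of the B cell, myeloid, NK, CD8 or erythroid lists passed the threshold in the model of group means. With the arrays' numbers as a replicate block within each state, the NK marker Klra8 passed at -0.70 (adjusted p = 0.0291) and the erythroid marker Alas2 at 0.63 (adjusted p = 0.0425), and without any array numbered 3 the myeloid marker Fcgr3 passed at -0.75 (adjusted p = 0.0297). Of the dendritic cell list only Cd74, which chaperones MHC class II, rose by 1.18 (SE 0.31). The calls of Cd5 and Cd74 were lost without the activated array numbered 3, at 0.79 (adjusted p = 0.106) for Cd5 and 1.01 (adjusted p = 0.0598) for Cd74. The call of Cd3g was lost without the activated array numbered 2 or the resting array numbered 1 or 3, at -0.28 (adjusted p = 0.0618), -0.31 (adjusted p = 0.0507) and -0.24 (adjusted p = 0.0926). In RNA from whole cultures, fewer cells that express a gene and less of its RNA per cell cannot be told apart.

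Restimulation changed a large share of the transcriptome of cells primed in 0.5 µM I-BET-762. Of the 18193 genes, 4238 (23.3%) differed between activated and resting cells. The genes that rose numbered 1918 (10.5%) and those that fell numbered 2320 (12.8%), and 701 rises and 693 falls reached 2-fold. In 6327 genes (34.8%) the 3 activated arrays did not overlap the 3 resting ones. The number of genes called was 4035 without the arrays numbered 3, of which 3161 were among the 4238. When all arrays were centred on their median, the rises came to 55.7% of the calls, against 45.3% on the deposited scale.

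Most genes that respond to restimulation without inhibitor also responded after priming with it. In the pooled controls, 6017 genes (33.1%) were called, from 6 activated and 6 resting arrays, so this comparison is more precise: 2628 (14.4%) rose and 3389 (18.6%) fell. Of the 1918 genes that rose after I-BET-762, 1634 also rose in the controls, which is 85.2% of the I-BET-762 rises and 62.2% of the control rises. Of the 2320 that fell, 2055 also fell in the controls, 88.6% of the I-BET-762 falls and 60.6% of the control falls. To set the responses side by side on equal numbers of arrays, recall genes were chosen on the DMSO arrays alone, as those called with a change of at least 2-fold. Of the 561 genes that rose there, 498 (88.8%) rose in cells primed in 0.5 µM I-BET-762 and 538 (95.9%) in cells primed in Control-768, where 8.89% of all genes were called higher. The median change of these 561 genes was 1.47 with I-BET-762, with quartiles at 1.08 and 1.87, and 1.35 with Control-768. Of the 601 genes that fell, 544 (90.5%) fell with I-BET-762 and 577 (96%) with Control-768, where 11.2% of all genes were called lower. Their median change was -1.31 with I-BET-762 and -1.27 with Control-768. Without the arrays numbered 3, the DMSO arrays chose 427 rises and 711 falls, and 89.7% of the rises and 89.2% of the falls were called with I-BET-762. With Control-768 those shares were 94.4% and 97.5%. Among the genes chosen without these arrays the order of the medians turned round: the rises had 1.26 with I-BET-762 and 1.29 with Control-768, and the falls -0.94 with I-BET-762 and -1.24 with Control-768.

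**Figure D1:**
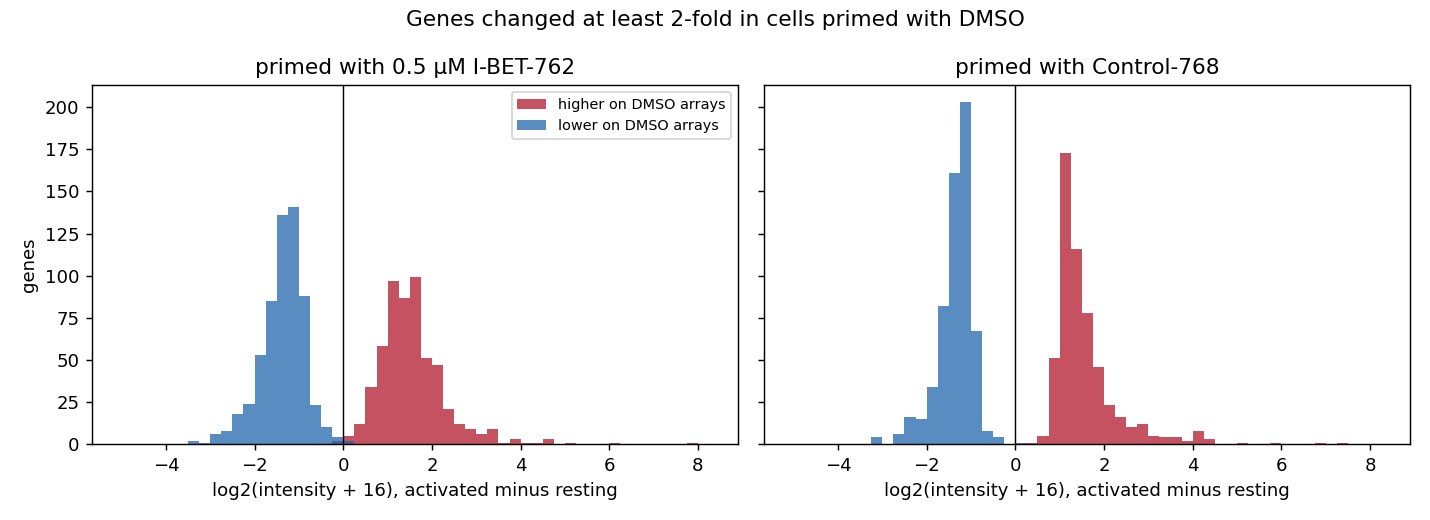
Change on restimulation of the genes that rose (red, 561 genes) or fell (blue, 601 genes) at least 2-fold on the DMSO arrays, as the number of genes per bin of log2(intensity + 16), activated minus resting. The left panel shows cells primed in 0.5 µM I-BET-762 and the right panel cells primed in Control-768, with medians of 1.47 and 1.35 for the rises.

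Among these recall genes, 4 had the opposite sign after I-BET-762. Dusp8, a phosphatase that acts on JNK, changed by -0.15 with I-BET-762, against 0.54 with Control-768 and 1.32 with DMSO. Lum, which encodes the matrix proteoglycan lumican, changed by -0.12 with I-BET-762, against 1.09 with Control-768 and 1.18 with DMSO. Gab2, a docking protein for signalling enzymes, changed by 0.22 with I-BET-762, against -1.19 with Control-768 and -1.21 with DMSO. The fourth was Pcsk4, a proprotein convertase, described with the differences below. Dusp8, Lum and Gab2 were named after their values were seen, and none of the 4 genes was called as changed with I-BET-762.

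The cytokine genes answered restimulation strongly. Of 22 measured genes of the T cell cytokine list, 13 rose and none fell, a share of 59.1% against the 23.3% called among all genes. The median change was 1.96 (controls, 12 rose and 1 fell, median 1.13). Gene by gene, however, the median difference from the change in the controls was -0.17. Without the arrays numbered 3, 12 rose, 11 of them among the 13, and the median was 1.35. Il2, the growth factor of T cells, had intensities of 4154, 5318 and 16368 in activated cells, against 24.9, 7.43 and 20.5 in resting cells. The groups were far apart, and Il2 rose by 7.77 (SE 0.60) (adjusted p = 2.39e-07), the largest rise of all named genes. Ifng, the signature cytokine of Th1 cells, stood at 17037, 15799.9 and 17054 in activated cells, against 2343, 789 and 1636 in resting cells. It rose by 3.51 (SE 0.41) (adjusted p = 1.35e-05), and its activated arrays lay near the highest value an array held. Tnf, a cytokine of inflammation, had 1754, 1739 and 4978 in activated cells, against 399, 228 and 216 in resting cells. The activated array numbered 3 was the highest, and Tnf rose by 3.12 (SE 0.42).

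Il13, a cytokine of type 2 responses, was at 1643, 789 and 5738 in activated cells, against 9.35, 8.24 and 13.5 in resting cells. Its resting arrays were close to the dark end of the scale and all activated arrays were far above them, with a rise of 6.23 (SE 0.87). Il24, a member of the IL-10 family, had 552, 286 and 565 in activated cells, against 13.3, 12.6 and 13.5 in resting cells. The resting arrays agreed closely with each other, and the rise was 3.99 (SE 0.36). Il10, which restrains inflammation, had 7945, 5921 and 15482 in activated cells, against 2023, 788 and 952 in resting cells, and rose by 2.95 (SE 0.68). The groups did not overlap for it, nor for Il21, a cytokine that acts on B cells and T cells, with 1222, 1542 and 1076 in activated cells, against 405, 258 and 219 in resting cells. Il21 rose by 2.09 (SE 0.38).

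Other cytokines rose less securely. Csf2, which encodes the growth factor GM-CSF, had 166, 162 and 741 in activated cells, against 8.92, 12.2 and 14.4 in resting cells. Its relative Il3, which lies on chromosome 11 with Csf2 and Il13, had 204, 275 and 573 in activated cells, against 6.94, 7.86 and 3.44 in resting cells. The activated array numbered 3 was the highest for both genes, as it was for Il17a, the signature cytokine of Th17 cells, at 54.5, 52.8 and 184 in activated cells, against 18.5, 12.2 and 20.4 in resting cells. Lta, which encodes lymphotoxin alpha, had 4285, 5299 and 1997 in activated cells, against 1404, 1898 and 182 in resting cells, and here the arrays numbered 3 were the lowest of each group. The changes were 3.39 (SE 0.95) for Csf2, 3.93 (SE 1.05) for Il3, 1.59 (SE 0.49) for Il17a and 2.14 (SE 0.60) for Lta. Each of these 4 calls was lost when a single array was left out. Without the activated array numbered 3, Csf2 changed by 2.70 (adjusted p = 0.0882), Il3 by 3.52 (adjusted p = 0.0526) and Il17a by 1.08 (adjusted p = 0.173). Il17a changed by 1.48 (adjusted p = 0.0695) without the resting array numbered 2. Lta changed by 1.85 (adjusted p = 0.0522) without the activated array numbered 2 and by 1.12 (adjusted p = 0.0871) without the resting array numbered 3.

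Chemokine and TNF family ligands were among the largest rises. Ccl4, an attractant of monocytes and T cells, had 8722, 7759.8 and 14524 in activated cells, against 625, 512 and 375 in resting cells, and rose by 4.29 (SE 0.51). Ccl3, its neighbour on chromosome 11, had 9399.9, 9431 and 16982 in activated cells, against 719.8, 705 and 158 in resting cells, and rose by 4.67 (SE 0.55). Of 15 chemokines measured, 4 rose and none fell (controls, 7 and 0), a share of 26.7% that is near the 23.3% called among all genes, and 6 rose without the arrays numbered 3. The other risers were Ccl1 (3.37) and Ccl9 (1.30). Both of those calls were lost without the activated array numbered 3, where Ccl1 changed by 2.51 (adjusted p = 0.166) and Ccl9 by 0.97 (adjusted p = 0.147). They were also lost without the resting array numbered 3, at 3.44 (adjusted p = 0.0591) and 1.13 (adjusted p = 0.0924), and Ccl1 without the resting array numbered 1 or 2. Of 10 TNF superfamily ligands, 7 rose and 1 fell, Fasl, the death ligand of T cells (controls, 7 and 0). This share of 80% stands against the 23.3% called among all genes. The fall of Fasl was not called without the arrays numbered 3 or after quantile scaling. Tnfsf11, the bone and lymph node signal RANKL, had 2911, 2099 and 4066 in activated cells, against 99.0, 100.4 and 33.1 in resting cells. Its lowest activated array was far above its highest resting one, and it rose by 5.08 (SE 0.55). Tnfsf8, the ligand of CD30, rose by 2.69 (SE 0.38), Cd70, the ligand of CD27, by 3.47 (SE 0.70), and Tnfsf9, the ligand of 4-1BB, by 2.40 (SE 0.50). Of 12 genes of the granzyme and perforin list, 4 rose and none fell (controls, 3 and 1), a share of 33.3% against the 23.3% called among all genes. The calls of Srgn and Prf1 were lost without the activated array numbered 3, at 0.23 (adjusted p = 0.111) and 0.73 (adjusted p = 0.173). That of Prf1 was also lost without the activated array numbered 1 or 2, and that of Srgn without the resting array numbered 1 or 2. Gzmb, a granzyme of killer granules, was already bright in resting cells, with 15783, 14863 and 16394 in activated cells, against 11102, 10789 and 7968 in resting cells, and rose by 0.67 (SE 0.14). Gzmc, a related granzyme, rose by 2.23 (SE 0.45).

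**Figure D2:**
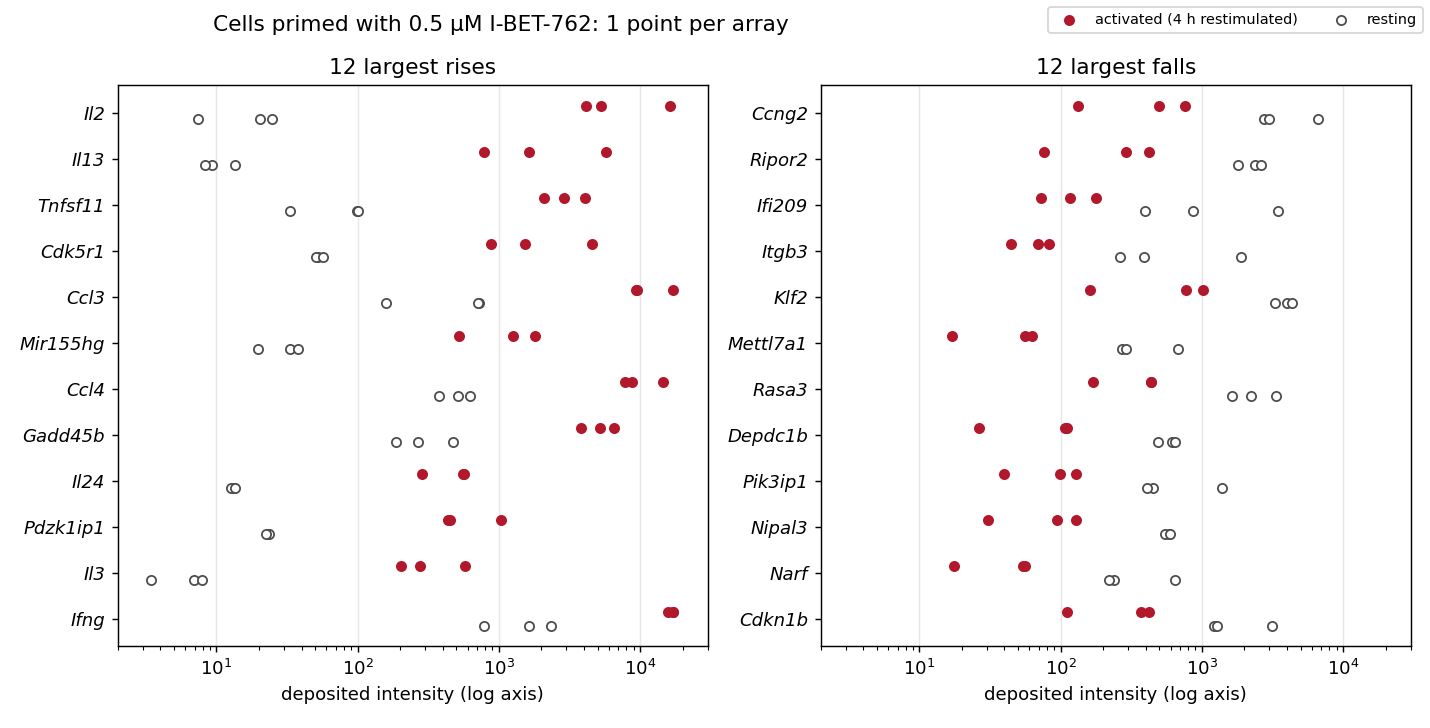
Intensities of the 12 genes with the largest rises (left) and the 12 with the largest falls (right) among called genes whose groups do not overlap, on a log axis, for cells primed in 0.5 µM I-BET-762. Each filled red point is an activated array and each open point a resting array, and by that choice every gene shows a gap between the groups.

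Genes of the NF-kB pathway rose almost as a whole. Of 18 measured, 17 rose and none fell, with a median change of 1.33 (controls, 17 rose, median 1.53). Without the arrays numbered 3, 16 rose, all among the 17. Nfkb2, which encodes the precursor of the NF-kB subunit p52, had 1326, 1409 and 2610.1 in activated cells, against 265, 217 and 379 in resting cells. It rose by 2.53 (SE 0.29), with no overlap between the groups. Tnip1, a brake on NF-kB signalling, had 3161, 2499.6 and 3459 in activated cells, against 902, 868 and 1397 in resting cells, and rose by 1.53 (SE 0.18). Icam1, an adhesion molecule that NF-kB is known to induce, rose by 2.10 (SE 0.27), and the inhibitor Nfkbib by 1.37 (SE 0.21). Nfkbib was called only through a probe set that can also match related transcripts: without such probe sets its change was 0.61 (adjusted p = 0.108).

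Immediate early and receptor-induced factors were split. Of 30, 10 rose and 1 fell, Zfp36, which destabilises cytokine mRNAs (controls, 15 and 2). This share of 36.7% stands against the 23.3% called among all genes. Without the arrays numbered 3, 15 rose and 1 fell. Irf8, an interferon regulatory factor, had 7100.4, 6334 and 9703 in activated cells, against 1402, 1348 and 2148 in resting cells, and rose by 2.24 (SE 0.18). Batf, an AP-1 partner in activated T cells, had 5818, 4265 and 6438 in activated cells, against 1719.8, 1567 and 1676 in resting cells, and rose by 1.71 (SE 0.19). Cd69, an early activation antigen, rose by 1.44 (SE 0.24) and Ier5, an immediate early gene, by 1.24 (SE 0.16). Egr2, a zinc finger factor induced through NFAT, did not pass the threshold in the model of group means, with 1307, 1846 and 4585 in activated cells, against 1200.5, 884 and 1085 in resting cells. Its lowest activated array was above its highest resting one, but the change was 1.08 (SE 0.51) (adjusted p = 0.146). With the replicate block within each state it passed, at 1.08 (adjusted p = 0.00186). Myc had 8530.3, 8408 and 10910.2 in activated cells, against 4412, 4614 and 611 in resting cells, so that activated cells were alike and the resting array numbered 3 was far below the other resting arrays. It rose by 1.98 (SE 0.63) (adjusted p = 0.0265). That call was lost without the activated array numbered 3, at 1.86 (adjusted p = 0.0944), and without the resting array numbered 3, at 1.03 (adjusted p = 0.201). Without any array numbered 3 in the study, Myc changed by 0.91 and was called.

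Mir155hg, the host transcript of miR-155, had 1257, 518 and 1815 in activated cells, against 32.9, 19.7 and 37.8 in resting cells, and rose by 4.56 (SE 0.43). The mature miRNA was not measured by its probe set. Cdk5r1, an activator of the kinase CDK5, had 1519, 877 and 4545 in activated cells, against 52.4, 50.9 and 57.1 in resting cells, and rose by 4.73 (SE 0.66). Gadd45b, a stress-induced activator of p38 signalling, had 5158, 3822 and 6531 in activated cells, against 265, 188 and 469.5 in resting cells, and rose by 4.06 (SE 0.59). Pdzk1ip1, a small membrane protein, had 1035, 452 and 437 in activated cells, against 23.1, 23.5 and 22.5 in resting cells, and rose by 3.96 (SE 0.37). These 4 genes were named among the largest rises without overlap between the groups, so every activated array was above every resting array by that choice.

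In the promoter windows of RefSeq on GRCm38.p6, the 250 bases before each annotated start were searched on both strands for an NF-kB motif (GGG, any 3 bases, then TTCC), an AP-1 motif (TGANTCA), a CRE (TGACGTCA) and an E-box (CACGTG), the letters that MYC is known to bind. A window was held for 14368 of the 18193 genes, and the motifs were counted separately even where they overlapped. Of the 15 NF-kB pathway genes with a window, 7 (46.7%) held the NF-kB motif, against 6.83% of all genes. An E-box was in 102 of 569 genes (17.9%) that rose at least 2-fold, in 50 of 567 (8.82%) that fell at least 2-fold, and in 10.3% of all genes. It was in 9 of 37 ribosome biogenesis genes (24.3%) and 9 of 31 MYC targets (29%). With both lists left out, it was in 93 of 530 (17.5%) of the rising genes. In the genes that rose at least 2-fold, the NF-kB motif was in 7.73%, the AP-1 motif in 6.33% and the CRE in 3.87%. Over all genes these shares were 6.83%, 7.5% and 2.94%. The mean GC content of the windows was 60.9% for the rising genes, 59.8% for the falling genes and 58.6% for all genes. Among the T cell cytokines with a window, 5 of 19 (26.3%) held the NF-kB motif, 5 of 19 the AP-1 motif (7.5% of all genes) and 0 of 19 an E-box. A match is a description of letters in a window and not a site of binding.

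The windows below belong to genes named for their rise, with the motif letters in capitals and the gene's own strand printed 5′ to 3′. Nfkb2 (chr19:46304487-46304736, plus strand) and Tnip1 (chr11:54962941-54963190, minus strand) show the NF-kB motif on either strand. Gadd45b (chr10:80929841-80930090, plus strand) and Pdzk1ip1 (chr4:115088458-115088707, plus strand) show the E-box.
Nfkb2: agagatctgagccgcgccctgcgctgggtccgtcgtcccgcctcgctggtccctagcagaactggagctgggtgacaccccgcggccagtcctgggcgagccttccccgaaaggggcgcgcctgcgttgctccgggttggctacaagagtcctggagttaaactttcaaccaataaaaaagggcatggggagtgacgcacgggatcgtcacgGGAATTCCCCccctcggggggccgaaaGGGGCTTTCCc
Tnip1: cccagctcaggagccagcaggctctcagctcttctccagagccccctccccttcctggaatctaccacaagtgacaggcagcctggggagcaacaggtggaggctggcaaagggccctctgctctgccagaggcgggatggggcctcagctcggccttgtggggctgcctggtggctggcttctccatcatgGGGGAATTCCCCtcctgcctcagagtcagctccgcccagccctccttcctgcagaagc
Gadd45b: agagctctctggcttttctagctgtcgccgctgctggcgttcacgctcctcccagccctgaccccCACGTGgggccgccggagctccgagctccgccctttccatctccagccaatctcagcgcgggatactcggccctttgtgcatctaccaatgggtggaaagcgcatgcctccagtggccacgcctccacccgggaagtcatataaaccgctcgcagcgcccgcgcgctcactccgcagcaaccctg
Pdzk1ip1: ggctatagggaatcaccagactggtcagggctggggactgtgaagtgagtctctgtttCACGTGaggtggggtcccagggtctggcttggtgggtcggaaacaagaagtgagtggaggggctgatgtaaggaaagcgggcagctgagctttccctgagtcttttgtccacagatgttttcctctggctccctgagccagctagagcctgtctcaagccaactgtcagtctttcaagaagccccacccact

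MYC targets and ribosome biogenesis genes rose together. Of 40 ribosome biogenesis genes, 35 rose and none fell, with a median change of 1.33 (controls, 37 rose, median 0.89). Of 37 MYC targets, 29 rose and none fell, with a median of 0.87 (controls, 26 rose and 1 fell, median 0.49). Rrp12, a factor for the export of ribosomal subunits, had 947, 943 and 1473 in activated cells, against 321, 394 and 161 in resting cells, and rose by 1.94 (SE 0.21). Bysl, needed for the small subunit, had 1809, 1580.5 and 2354 in activated cells, against 639, 783 and 393 in resting cells, and rose by 1.67 (SE 0.21). Heatr1, a factor for ribosomal RNA transcription and processing, rose by 1.58 (SE 0.21). In these genes the number 3 arrays were the highest of the activated and the lowest of the resting arrays. The list median of ribosome biogenesis was 2.33 between the arrays numbered 3, against 0.85 for number 1 and 0.74 for number 2. Without the arrays numbered 3, 34 of the 40 rose, all among the 35, with a median of 0.81, and 25 of the 37 MYC targets rose with a median of 0.55.

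**Figure D3:**
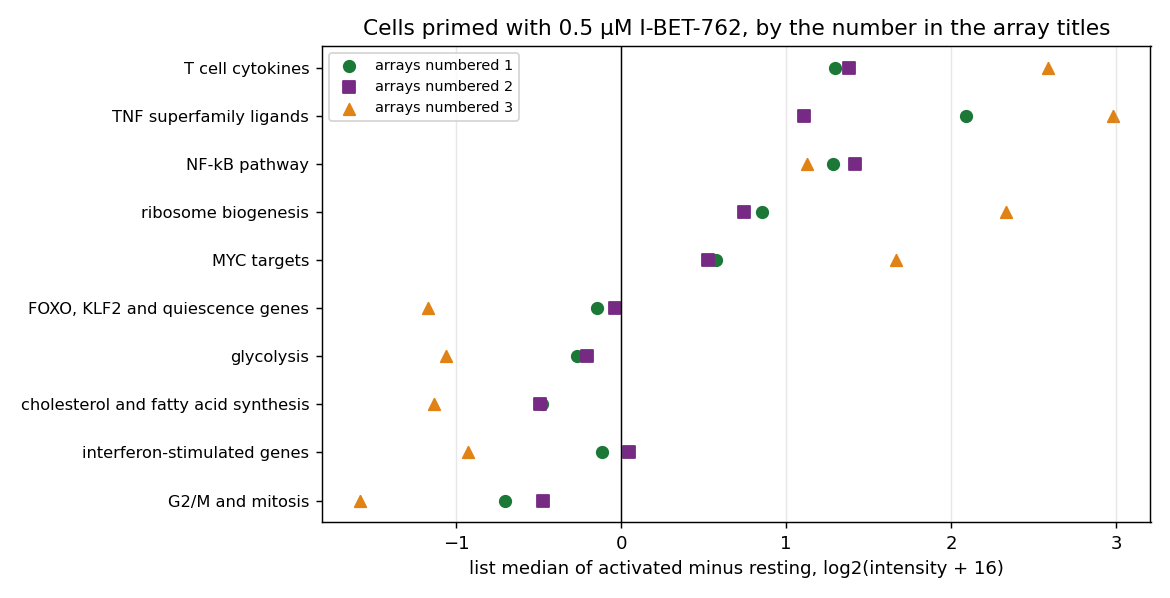
Median change of 10 gene lists between the activated and the resting 0.5 µM arrays that carry the same number, on the scale log2(intensity + 16). Circles are arrays numbered 1, squares number 2 and triangles number 3, and the triangles lie furthest from 0 in 9 of the 10 lists, with NF-kB pathway genes (1.13) the exception.

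Of the genes of the BET and P-TEFb machinery itself, 4 of 15 rose and none fell (controls, 9 and 0), a share of 26.7% that is near the 23.3% called among all genes. The 4 were Eaf1, Brd3, Aff4 and Ell2, and the calls of the last 3 were lost without the activated array numbered 3, at 0.43 (adjusted p = 0.0668) for Brd3, 0.55 (adjusted p = 0.0959) for Aff4 and 0.99 (adjusted p = 0.0985) for Ell2. Those of Brd3 and Aff4 were also lost without the activated array numbered 1 or 2, and at an added constant of 1. With the mean of all probe sets, Aff4 at 0.013 (adjusted p = 0.951) and Ell2 at 0.52 (adjusted p = 0.0778) were not called. Without any array numbered 3, 6 of the 15 rose. Eaf1, a partner of the ELL elongation factors, had 2454, 2295 and 3599 in activated cells, against 879, 1016 and 996 in resting cells, and rose by 1.49 (SE 0.16). Brd2, which encodes a BET protein, had 3211, 4942 and 4507 in activated cells, against 3349, 3354 and 3816 in resting cells, with overlapping groups and a change of 0.25 (SE 0.15). Hexim1, an inhibitor of P-TEFb, had 2045, 1962 and 1869.8 in activated cells, against 1877, 1684 and 1675 in resting cells, also with overlapping groups, and a change of 0.17 (SE 0.19). In the controls the changes were 0.40 (SE 0.11) for Brd2 and 0.71 (SE 0.14) for Hexim1, and both rose. The difference between the responses was not called for either gene, with 95% confidence intervals from -0.55 to 0.24 for Brd2 and from -1.03 to -0.06 for Hexim1.

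Receptors and lineage factors gave smaller counts. Of 15 costimulatory receptors 7 rose and none fell (controls, 10 and 1), and of 10 inhibitory receptors 3 rose and none fell (controls, 6 and 0). The shares called were 46.7% and 30%, against 23.3% among all genes. Cd274, which encodes PD-L1, had 1664, 1265 and 4158 in activated cells, against 363, 306 and 764 in resting cells, and rose by 2.19 (SE 0.40). Pdcd1lg2, which encodes PD-L2, rose by 1.85 (SE 0.39), and Cd44, a marker of antigen-experienced cells, by 1.32 (SE 0.22). Of 16 Th1 lineage genes 3 rose and 2 fell, a share of 31.2% against the 23.3% called among all genes. Without the arrays numbered 3, 5 rose and 2 fell. Tbx21, the master regulator of Th1 cells, had 4268, 3883 and 4702 in activated cells, against 2188, 2026 and 2638 in resting cells, and rose by 0.91 (SE 0.14). Ifngr1, a chain of the interferon gamma receptor, had 1310.4, 1763 and 524 in activated cells, against 3480.0, 3108 and 6375 in resting cells, and fell by 1.92 (SE 0.37). Of 16 factors of other helper lineages 2 rose and 2 fell, a share of 25% that is near the 23.3% called among all genes. The rises were the paralogs Stat5a (2.84 (SE 0.25)) and Stat5b (0.65 (SE 0.16)), which relay IL-2 signals. The falls were Prdm1 and Tox. Both calls were lost without the activated array numbered 3, at -0.54 (adjusted p = 0.0833) and -0.93 (adjusted p = 0.0785). That of Tox was also lost without the activated array numbered 1 or 2. Stat5a had 5409.8, 4977 and 7741 in activated cells, against 613, 669 and 1328 in resting cells. Of 14 cytokine receptors 2 rose and 4 fell, and of 17 genes of the T cell receptor complex 2 rose and 4 fell. These shares were 42.9% and 35.3%, against 23.3% among all genes. Plcg1, the phospholipase downstream of the receptor, fell by 1.42 (SE 0.16), but a dimmer probe set of it, with a mean intensity of 33.5, went the opposite way (0.73).

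Feedback regulators moved in both directions. Rgs16, a brake on G protein signals, had 1806, 2159 and 6286 in activated cells, against 210.4, 278 and 419.5 in resting cells, and rose by 3.25 (SE 0.52). Pim3, a survival kinase, had 2616, 2226 and 5215 in activated cells, against 663, 808 and 512 in resting cells, and rose by 2.24 (SE 0.27). The MAP kinase phosphatase Dusp6 fell by 1.69 (SE 0.43), and Dusp16, another of that family, rose by 0.71 (SE 0.16). Of 18 genes of the SOCS, CISH, PIM and RGS list 5 rose and 3 fell (controls, 8 and 2), and of 16 MAP kinase and calcium feedback genes 3 rose and 3 fell (controls, 6 and 4). The shares called with I-BET-762 were 44.4% and 37.5%, against 23.3% among all genes.

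**Figure D4:**
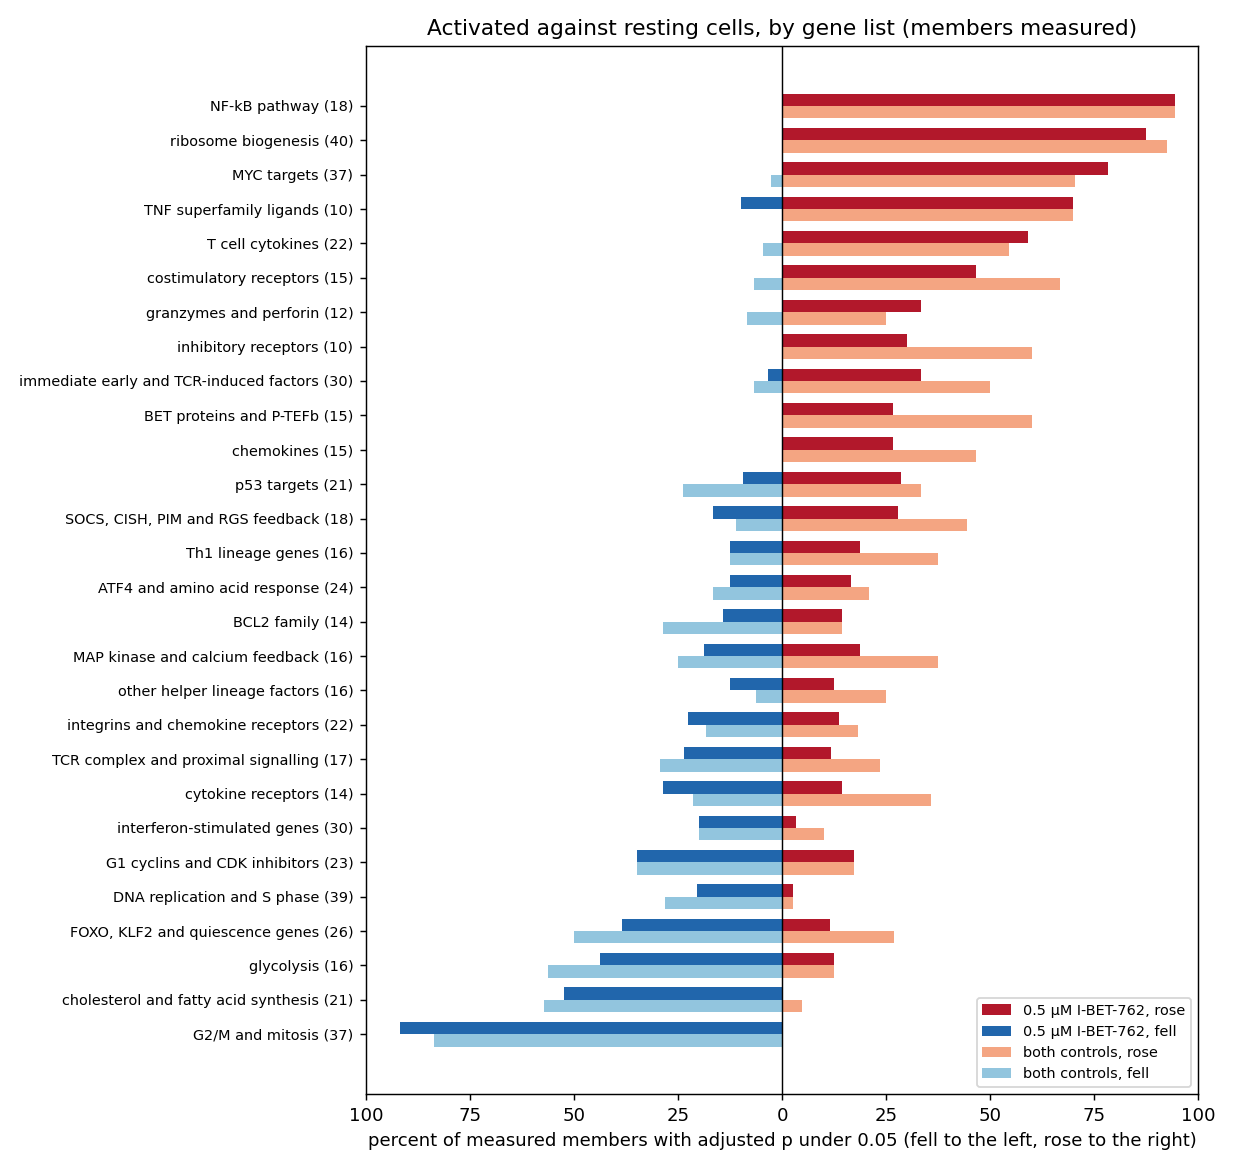
Share of the measured members of each gene list that rose (right) or fell (left) on restimulation at an adjusted p under 0.05, in percent. The upper bar of each pair is cells primed in 0.5 µM I-BET-762 and the lower bar the pooled controls, which hold more arrays; 17 of 18 NF-kB pathway genes rose and 34 of 37 G2/M genes fell with I-BET-762.

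Genes of mitosis were the list with the most falls. Of 37 G2/M genes, 34 fell and none rose, with a median change of -0.95 (controls, 31 fell, median -0.66), and without the arrays numbered 3, 28 fell, all among the 34, with a median of -0.61. Cdc25b, a phosphatase that starts mitosis, had 523, 461 and 315 in activated cells, against 1411, 1211 and 2039.8 in resting cells, and fell by 1.80 (SE 0.18). Cenpf, a kinetochore protein, had 423, 465 and 200.1 in activated cells, against 1119, 996 and 1671 in resting cells, and fell by 1.80 (SE 0.23). Bub1, a kinase of the spindle checkpoint, had 1561, 1561 and 845 in activated cells, against 2992, 2886 and 3537 in resting cells, and fell by 1.29 (SE 0.18). All activated arrays of the 3 genes were below all resting ones. Depdc1b, which is known to peak in mitosis and was named for the size of its fall, had 112, 108 and 26.3 in activated cells, against 614, 492 and 646 in resting cells. S phase genes moved less: of 39, 1 rose and 8 fell, a share of 23.1% that is near the 23.3% called among all genes. Their median change was -0.37, and 5 of the 39 had a positive change. Without the arrays numbered 3, 1 rose and 12 fell, and after quantile scaling 1 rose and 13 fell.

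Regulators of cell cycle entry moved in both directions. Of 23 genes of the G1 cyclin and CDK inhibitor list, 4 rose and 8 fell, a share of 52.2% against the 23.3% called among all genes. Without the arrays numbered 3, 6 rose and 9 fell. Ccng2, an atypical cyclin of quiescent cells, had 496, 761 and 132 in activated cells, against 2743, 3006 and 6690.1 in resting cells, the largest fall of all named genes at -3.30 (SE 0.50). Cdkn1b, which encodes the CDK inhibitor p27, had 371, 424 and 111 in activated cells, against 1223, 1278 and 3143 in resting cells, and fell by 2.62 (SE 0.43). Rbl2, a retinoblastoma relative, fell by 1.56 (SE 0.23) and Rb1 by 0.94 (SE 0.14).

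Genes of the quiescent state fell in part. Of 26 genes of the FOXO, KLF2 and quiescence list, 3 rose and 10 fell, with a median of -0.51 (controls, 7 rose and 13 fell). The share called with I-BET-762 was 50%, against 23.3% among all genes. Without the arrays numbered 3, 7 rose and 9 fell, with a median of -0.06. Klf2, a factor that maintains T cell quiescence and homing, had 767, 1013 and 162 in activated cells, against 3999, 3267 and 4365 in resting cells, and fell by 2.89 (SE 0.47). Pik3ip1, an inhibitor of PI3 kinase, had 98.1, 128 and 39.9 in activated cells, against 448, 411 and 1399 in resting cells, and fell by 2.75 (SE 0.40). Rasa3, a GTPase-activating protein that restrains integrin activation, had 438, 438 and 169 in activated cells, against 2229, 1624 and 3353 in resting cells, and fell by 2.78 (SE 0.36). These 3 genes were among the largest falls, which were chosen without overlap between the groups, and the activated array numbered 3 was the lowest of each. Ripor2 had 290.4, 422 and 75.8 in activated cells, against 2391, 1802 and 2605 in resting cells, and fell by 3.29 (SE 0.40).

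The remaining large falls covered several functions. Ifi209, an interferon-inducible gene, had 117, 72.9 and 177 in activated cells, against 859.8, 393 and 3464 in resting cells, and fell by 3.03 (SE 0.56). Itgb3, the integrin beta 3 chain, had 69.2, 82.6 and 44.2 in activated cells, against 391, 264 and 1900.3 in resting cells, and fell by 2.92 (SE 0.48). In both, the resting array numbered 3 was far above the other resting arrays. Without any array numbered 3 the changes were -2.46 for Ifi209 and -1.88 for Itgb3, and both remained called. Mettl7a1 fell by 2.78 (SE 0.35), Nipal3 by 2.71 (SE 0.28) and Narf by 2.63 (SE 0.34). Of 22 integrin and chemokine receptor genes, 3 rose and 5 fell, a share of 36.4% against the 23.3% called among all genes. Ccr4, a skin-homing receptor, rose by 2.04 (SE 0.38).

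Genes of lipid synthesis and glycolysis fell more often than they rose. Of 21 genes of cholesterol and fatty acid synthesis, 11 fell and none rose (controls, 12 and 1), with a median of -0.73, and 14 fell without the arrays numbered 3. Dhcr7, the last enzyme of cholesterol synthesis, had 288, 458 and 145 in activated cells, against 951, 1116 and 684 in resting cells, and fell by 1.68 (SE 0.38). Fdft1, which makes squalene, fell by 1.35 (SE 0.31). Of 16 glycolysis genes 2 rose and 7 fell, with opposite moves of 2 hexokinases. The shares called were 52.4% for the lipid list and 56.2% for glycolysis, against 23.3% among all genes. Hk2, the inducible hexokinase, had 8637, 7452 and 8512 in activated cells, against 2776, 2959.8 and 3567 in resting cells, and rose by 1.40 (SE 0.11). Hk1, the constitutive one, had 2263, 2389 and 1694 in activated cells, against 3580.5, 3509.9 and 4124 in resting cells, and fell by 0.83 (SE 0.14). Slc2a3, the glucose transporter GLUT3, fell by 0.99 (SE 0.17), and Slc16a1, a lactate transporter, rose by 1.01 (SE 0.17). Of 24 ATF4 and amino acid supply genes 4 rose and 3 fell, a share of 29.2% against the 23.3% called among all genes. Without the arrays numbered 3, 2 rose and 2 fell. Slc7a1, a transporter of basic amino acids, rose by 1.30 (SE 0.20), and Trib3, a target of ATF4, fell by 2.00 (SE 0.37).

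Survival and stress genes changed individually. Bcl2l1, which encodes the survival protein BCL-XL, had 4366, 3534 and 5671 in activated cells, against 1581, 1377 and 668 in resting cells, and rose by 1.95 (SE 0.25). Of 14 BCL2 family genes 2 rose and 2 fell, a share of 28.6% against the 23.3% called among all genes. The calls of the other 3, Bid, Bcl2 and Bad, were lost without the activated array numbered 3, at 1.13 (adjusted p = 0.132), -0.34 (adjusted p = 0.124) and -0.32 (adjusted p = 0.11). That of Bid was also lost without the activated array numbered 1 or 2. The call of Bcl2 was also lost without the resting array numbered 1 or 2, and that of Bad without the activated array numbered 2. Of 21 p53 targets 6 rose and 2 fell, a share of 38.1% against the 23.3% called among all genes. Among them were Aen, an apoptotic nuclease, at 1.20 (SE 0.19), and Sesn1, a sestrin, at -1.49 (SE 0.20). The median change of the 21 genes was 0.16, and without the arrays numbered 3, 10 rose and 3 fell, with a median of 0.52. Of 30 interferon-stimulated genes 1 rose and 6 fell, and the share called equals the 23.3% called among all genes. Ifit2, which restricts viral RNA, had 67.6, 76.0 and 46.9 in activated cells, against 184, 174 and 483 in resting cells, and fell by 1.76 (SE 0.25). Dhx58, which encodes the RNA sensor LGP2, fell by 1.76 (SE 0.32).

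Whether the response itself differed from that of the controls was tested as the difference between the changes. In the model of group means 0 of 18193 genes (0%) were called by limma, 846 (4.65%) had an unadjusted p under 0.05, and the lowest adjusted p was 0.182. The median 95% confidence interval of a difference reached 0.48 to either side. Arrays with the same number in the same state deviated together: correlations of their deviations from the group means ran from 0.163 to 0.438 between the 0.5 µM arrays and the controls. With this pairing as a replicate block within each state, 49 genes (0.269%) differed, 27 with a higher and 22 with a lower change after I-BET-762, and 1894 had an unadjusted p under 0.05. The genes named next are the 10 with the largest difference in each direction among the 49, with SE and adjusted p from the blocked fit. Against Control-768 alone the block called 3 genes and against DMSO alone 5. Without any array numbered 3 the blocked fit called 11 genes, and of the 20 named next only Il13 at 2.98 (adjusted p = 0.0379), Klrc1 at -1.94 (adjusted p = 0.0304) and Stra6 at -1.76 (adjusted p = 0.0258) passed in that limma fit. Without these arrays and without the block, 4 genes were called, among them Stra6 (adjusted p = 0.0106), Klrc1 (adjusted p = 0.0188) and Ccl3 (adjusted p = 0.0212). In levels, 275 genes (1.51%) differed between I-BET-762 and the controls in activated cells and 491 (2.7%) in resting cells.

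Il13 showed the largest gain. It had intensities of 1643, 789 and 5738 in activated cells, against 9.35, 8.24 and 13.5 in resting cells with I-BET-762, and from 116 to 1314 (median 207) in activated cells, against 10.3 to 18.4 (median 12.8) in resting cells in the controls. Its response was larger by 2.72 (SE 0.26, adjusted p = 0.000378). Among the 10 genes with a higher signed change, Il13, Kctd14, Fcmr and Id3 rose with I-BET-762 in the model of group means. Tanc2 passed only with the block, at 0.52 (adjusted p = 0.017). The call of Id3 was lost without either of the 0.5 µM arrays numbered 3. It changed by 0.96 (adjusted p = 0.232) without the activated and by 0.91 (adjusted p = 0.219) without the resting one. Fcmr, the receptor for IgM, had 216, 181 and 134 in activated cells, against 53.3, 77.4 and 17.0 in resting cells with I-BET-762, and from 289 to 456 (median 401) in activated cells, against 324 to 414 (median 346) in resting cells in the controls. It was lower than in the controls in both states, with a difference in level of -1.05 in activated cells (adjusted p = 0.0272, limma) and of -2.64 in resting cells (adjusted p = 1.34e-06). Its response was larger by 1.59 (SE 0.26, adjusted p = 0.0237). Pcsk4 had 214, 193 and 201 in activated cells, against 221, 256 and 114 in resting cells with I-BET-762, with overlapping groups, and from 213 to 295 (median 237) in activated cells, against 558 to 689 (median 622) in resting cells in the controls, where the groups were apart. The difference was 1.38 (SE 0.21, adjusted p = 0.0112), and the resting levels differed by -1.65 (adjusted p = 9.88e-06, limma). Kctd14, named only by the blocked fit, differed by 1.79 (SE 0.20, adjusted p = 0.00203), and its rise with I-BET-762 was 3.36 (SE 0.51). Without probe sets that can match related transcripts it was read from the brightest one left, where the change was 0.53 (adjusted p = 0.0736). The difference there, in the model of group means, was 0.18 (adjusted p = 1). A dimmer probe set that was also left rose by 3.05 (adjusted p = 0.000132, limma over all probe sets), with a difference of 1.37.

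Ccl3, Egr2 and Tbx21 had smaller changes after I-BET-762 and higher resting levels than the controls. Ccl3 had 9399.9, 9431 and 16982 in activated cells, against 719.8, 705 and 158 in resting cells with I-BET-762, and from 3025 to 13957 (median 5527) in activated cells, against 24.3 to 45.8 (median 30.0) in resting cells in the controls. Every resting array with I-BET-762 was above every resting control array, by 3.25 on average (adjusted p = 0.000395, limma), and the change was smaller, with a difference of -2.38 (SE 0.44, adjusted p = 0.0442). Egr2 had 1307, 1846 and 4585 in activated cells, against 1200.5, 884 and 1085 in resting cells with I-BET-762, and from 919 to 3960.4 (median 1871) in activated cells, against 124 to 379.5 (median 234) in resting cells in the controls. The resting level was higher by 2.16 (adjusted p = 0.00791, limma), the activated levels overlapped, and the difference was -2.03 (SE 0.29, adjusted p = 0.0112). Tbx21, whose adjusted p was also below 0.05 with the block, had from 2889 to 3969 (median 3559) in activated cells, against 1039 to 1321 (median 1070.3) in resting cells in the controls. Its resting level was higher by 0.99, and the difference between the responses was -0.71 (SE 0.14, adjusted p = 0.0469).

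Cxcl10 and Klrc1 had smaller changes and lower activated levels than the controls. Cxcl10, an interferon-induced chemokine, had 146, 124 and 58.9 in activated cells, against 5.81, 4.97 and 55.4 in resting cells with I-BET-762, and from 595 to 951 (median 813) in activated cells, against 6.78 to 185 (median 21.4) in resting cells in the controls. The activated arrays did not overlap those of the controls, with a difference in level of -2.78 (adjusted p = 0.0241, limma), and the responses differed by -2.13 (SE 0.38, adjusted p = 0.0325). Klrc1, which encodes the NK cell receptor NKG2A, had 10.8, 12.6 and 6.78 in activated cells, against 7.54, 4.80 and 8.39 in resting cells with I-BET-762, all below 16, and from 67.2 to 160.1 (median 124) in activated cells, against 11.3 to 32.8 (median 20.4) in resting cells in the controls. Its activated level differed from the controls by -2.34 (adjusted p = 4.41e-06, limma), and the responses differed by -1.69 (SE 0.25, adjusted p = 0.0112). Stra6, a receptor for retinol-binding protein, differed by -1.67 (SE 0.25, adjusted p = 0.0112), and Ebf1, a B cell factor that was one of the B cell markers, by -1.33 (SE 0.22, adjusted p = 0.0244). Iigp1 and Irgm1, interferon-inducible GTPases, differed by -1.90 (SE 0.27, adjusted p = 0.0112) and -1.70 (SE 0.29, adjusted p = 0.0282). Iigp1 had 831, 1193 and 115 in activated cells, against 888, 754 and 703 in resting cells with I-BET-762, and the activated array numbered 3 was far below the others. With the block, the changes with I-BET-762 of Cxcl10, at 1.90 (adjusted p = 0.000149), Iigp1, at -0.63 (adjusted p = 0.0364), and Irgm1, at -1.09 (adjusted p = 0.00187), also passed, as they did not in the model of group means. The promoter window of Cxcl10 (chr5:92348890-92349139, GRCm38.p6, minus strand) is shown because it holds the NF-kB motif at more than 1 place and an AP-1 motif.
Cxcl10: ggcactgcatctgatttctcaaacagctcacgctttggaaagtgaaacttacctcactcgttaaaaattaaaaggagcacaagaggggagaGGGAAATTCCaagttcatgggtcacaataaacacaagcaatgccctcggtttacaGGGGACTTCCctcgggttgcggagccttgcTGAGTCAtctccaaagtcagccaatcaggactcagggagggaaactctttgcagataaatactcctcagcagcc

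**Figure D5:**
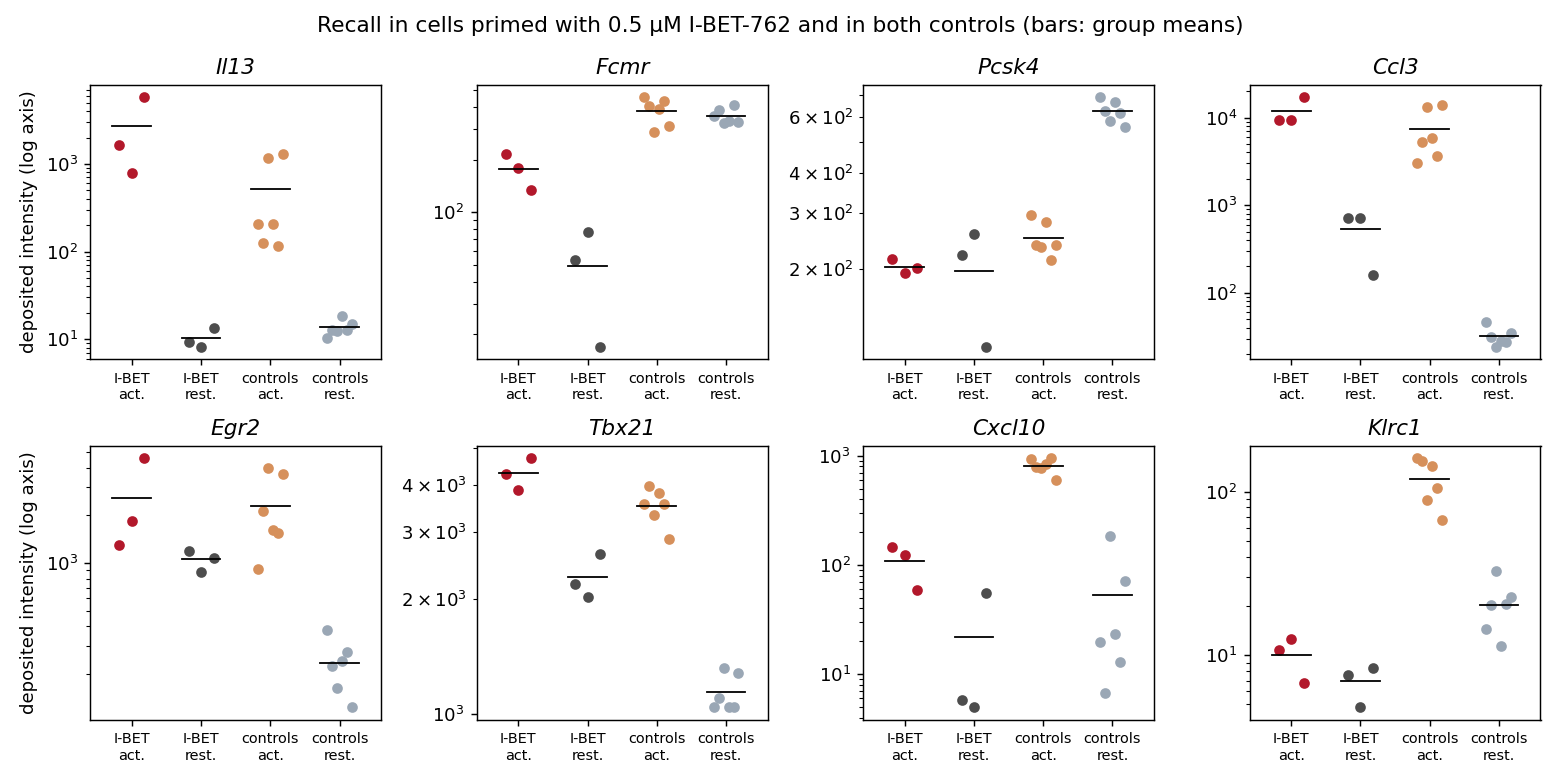
Intensities on log axes of 8 genes in activated and resting cells primed in 0.5 µM I-BET-762 (left 2 columns of each panel) and in both controls (right 2 columns). Points are arrays and bars are group means; Ccl3, Egr2 and Tbx21 differ from the controls in resting cells, and Cxcl10 and Klrc1 in activated cells.

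For the large majority of the named recall genes no such difference was called, with or without the block. For Il2 the difference was 0.24 with a 95% confidence interval from -1.30 to 1.79, for Ifng -0.82 with an interval from -1.88 to 0.23, and for Tnf -0.31 with an interval from -1.38 to 0.75. These intervals are wide, and a difference of 2-fold lies inside each. For Nfkb2 the difference was 0.05 with an interval from -0.69 to 0.78, and for Stat5a -0.01 with an interval from -0.66 to 0.64, so that 2-fold lies outside both.

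Cells primed in 0.25 µM I-BET-762 had 2635 genes called on restimulation (14.5%), with fewer calls than at 0.5 µM. The difference between the responses at 0.5 and 0.25 µM was called for 0 genes by limma, with 564 at an unadjusted p under 0.05, and for 0 genes with the block, with 1355. Il2 changed by 7.10 and Ifng by 3.72 at 0.25 µM. Il13 changed by 4.71 and Fcmr by 0.35 at 0.25 µM, values between those at 0.5 µM and in the controls (3.51 and 0.08). Both genes were chosen for a large difference at 0.5 µM, so these values in between cannot show a graded response.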

How the data were processed

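RNA from 24 cultures was amplified, biotin labelled and hybridized to Affymetrix mouse arrays, per the labels' protocols. The authors deposited linear intensities for 45101 probe sets, and the labels name no method of summary or normalization. Here they were taken as log2(intensity + 16). A platform table gave a single symbol to 34945 probe sets, several to 932 and none to 9160, and 64 were controls. Each gene was read from its brightest single-symbol probe set over the 24 arrays (18193 genes; 9010 had several). All arrays entered a model of 8 group means in limma 3.58.1 (R 4.3.3), with 16 residual and 3.58 prior degrees of freedom. Tests were two-sided, with Benjamini-Hochberg adjustment and a threshold of 0.05. The median 95% confidence interval of a recall change reached 0.39 to either side, and the number of arrays limits this precision.

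Control-768 and DMSO arrays were pooled as controls. Within a state, arrays of the same number deviated together (above 0.1 in every pair), so the difference between responses is also given with the number as a block. The code was tested on simulated data. The members and the 35 gene lists were chosen with earlier results of these data known. Named were 16 genes named whatever their values, the 12 largest rises and falls whose arrays do not overlap, up to 4 members per list by adjusted p (2 by p where none passed), and the 10 largest differences each way. As the model of group means called no difference, the last rule was applied to the blocked fit. Placeholder symbols were passed over. Dusp8, Lum, Gab2, Fasl and Zfp36 were named after their values were seen. Promoter windows came from RefSeq (GRCm38.p6). Alternatives covered the added constant, dim genes, scaling, probe set choice, blocks and left-out arrays. Leaving out the arrays numbered 3, alone or with the block, was chosen after seeing the data.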

Additional observations from a re-analysis of the deposited data

Results flagged for a closer look

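In the fit with the replicate number as a block within each state, the response to restimulation differed between cells primed in 0.5 µM I-BET-762 and the controls for the genes named here, which are the 10 largest differences in each direction. The limma model of group means called no gene, with 846 at an unadjusted p under 0.05 and a lowest adjusted p of 0.182. It called 4 genes without the arrays numbered 3, among them Ccl3 at -2.77 (adjusted p = 0.0212), Klrc1 at -1.94 (adjusted p = 0.0188) and Stra6 at -1.76 (adjusted p = 0.0106).

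The signed change was higher with I-BET-762 for Il13 by 2.72 on the log2 scale, for Kctd14 by 1.79, for Fcmr by 1.59, for Pcsk4 by 1.38 and for Id3 by 1.22. For Pcsk4 this was not a larger response. It changed by -1.29 with DMSO and -1.26 with Control-768, against 0.11 with I-BET-762. Without probe sets that can match related transcripts, and without the block, the difference was 0.18 for Kctd14, read from the brightest probe set left. On a dimmer probe set of Kctd14 that was also left it was 1.37. The other 5 genes with a higher signed change were not called in cells primed with I-BET-762 in the model of group means. With the block Tanc2 was called in these cells, at 0.52 (adjusted p = 0.017). Morc1 changed by -0.08 with I-BET-762, Slc14a1 by -0.13, Tmem108 by -0.19 and Dipk1b by 0.14. In all 5 the change with I-BET-762 was below the difference, so the change in the controls was negative. Morc1 had 6.46, 3.05 and 6.38 in activated cells, against 5.15, 9.51 and 4.78 in resting cells with I-BET-762, and from 12.1 to 41.5 in activated cells, against 38.3 to 151 in resting cells in the controls. Its intensities with I-BET-762 were all below those of the controls, and the difference was 1.39 (SE 0.27, adjusted p = 0.0495, limma with block). Tmem108 had 28.4, 33.6 and 17.95 in activated cells, against 24.6, 64.2 and 17.8 in resting cells with I-BET-762, and from 53.4 to 213 in activated cells, against 192 to 540.4 in resting cells in the controls, a difference of 1.11 (SE 0.22, adjusted p = 0.0469, limma with block). Slc14a1, a urea transporter, differed by 1.33 (SE 0.22, adjusted p = 0.0219, limma with block). Tanc2 differed by 1.04 (SE 0.19, adjusted p = 0.0448) and Dipk1b by 1.02 (SE 0.15, adjusted p = 0.0112) in the same limma fit. For Slc14a1, Tanc2 and Dipk1b the lowest of the 3 resting arrays with I-BET-762 was the one numbered 3, at 55.3, 52.7 and 23.8.

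The signed change was lower with I-BET-762 for Ccl3, with a difference of -2.38, for Cxcl10 with -2.13, for Egr2 with -2.03, for Iigp1 with -1.90 and for Klrc1 with -1.69. Iigp1, Irgm1 and Bcl6 had negative changes with I-BET-762, of -0.63, -1.09 and -0.40. Each was less negative than the gene's difference, so the change in the controls was positive. Stra6 had 34.0, 40.2 and 21.9 in activated cells, against 25.02, 26.05 and 15.6 in resting cells with I-BET-762, and from 98.3 to 231 in activated cells, against 19.1 to 47.2 in resting cells in the controls, a difference of -1.67 (SE 0.25, adjusted p = 0.0112, limma with block). Ebf1, a B cell transcription factor, had 6.03, 5.38 and 9.75 in activated cells, against 4.74, 6.28 and 6.58 in resting cells with I-BET-762, and from 49.4 to 74.3 in activated cells, against 6.30 to 21.4 in resting cells in the controls. Its difference was -1.33 (SE 0.22, adjusted p = 0.0244, limma with block). Irgm1, an interferon-induced GTPase, differed by -1.70 (SE 0.29, adjusted p = 0.0282, limma with block), and its activated arrays with I-BET-762 had 609.5, 788 and 127. Lad1 differed by -1.58 (SE 0.27, adjusted p = 0.0296, limma with block). Bcl6, the repressor that directs follicular helper T cells, differed by -1.28 (SE 0.25, adjusted p = 0.0496, limma with block), and its resting arrays with I-BET-762 had 247, 187 and 1111.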

How the results depend on the processing

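The number of genes called for the response with 0.5 µM I-BET-762 was 4238 and moved most with the arrays used. It ran from 2012 to 4348 when a replicate was left out, at 2012 without replicate 1, 2709 without replicate 2 and 4035 without replicate 3. It was 1228 with only these 6 arrays, 131 with only these arrays and the replicate block, 1394 with a fold change of at least 2, 5217 with an additive replicate block and 6102 with the block within each state. Same-numbered arrays did not all deviate together across states (correlations of 0.11, 0.082 and 0.155), so the additive block shares only a number. The controls' count ran from 3415 to 6723 when a replicate was left out, and was 3651 with Control-768 alone and 3799 with DMSO alone. The difference between responses was called for 2 genes with the additive replicate block, 49 with the block within each state, 11 with that block without replicate 3, and 0 to 4 when a replicate was left out. The other alternatives called 0, with a lowest adjusted p of 0.0522 at a constant of 64. Median centring moved the share of higher calls to 55.7%, against 45.3%. The cause of these shifts was not tested.

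Of the values of named genes in cells primed with I-BET-762, 2815 kept their direction and side of the threshold, 334 lost the call, 20 gained it and 23, none of them called, changed sign. Changed signs were Slc14a1 at 0.022 after quantile scaling, Morc1 at 0.0039 after median centring, Cd8a at -0.094 without probe sets that can match related transcripts, and Tmem108 at 0.21 and Ebf1 at -0.0043 with the mean of all probe sets. With a replicate left out the changes ran from -0.56 to 0.093 for Slc14a1, -0.17 to 0.10 for Morc1, -0.44 to 0.19 for Tmem108, -0.21 to 0.35 for Pcsk4, -0.37 to 0.49 for Dipk1b, -1.28 to 0.35 for Iigp1, -0.91 to 0.36 for Bcl6 and -0.0099 to 0.14 for Ebf1. Csf2, Il3 and Ccl1 lost their calls at a constant of 64. With the mean of all probe sets, calls were lost for Plcg1, Aff4, Bcl2, Ell2, Malt1, Xaf1 and Ddit3. The change there was 0.013 (adjusted p = 0.951) for Aff4 and -0.15 (adjusted p = 0.712) for Bcl2. Dim probe sets give small changes on this scale, and no detection call was used here.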
